A study of Lolium multiflorum with 4 samples.

Results

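In seedlings of Lolium multiflorum, 72 of 111761 assembled contigs were listed at 0 in the libraries of the material called LmHC, while each LmLC library held them at 5 FPKM or more. FPKM counts fragments per kilobase of a contig, relative to all fragments mapped in that library. These 72 contigs were chosen on all 4 measured values, so their absence from LmHC and their level in LmLC are a description and no finding. Deposited values have 2 decimals, and a contig listed at 0 may therefore have had a value under 0.005 FPKM. Below, absent from LmHC means only that a contig was listed at 0 in both LmHC libraries. Whether LmHC fragments of the same gene were assigned to another contig was not tested.

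Each of the 4 groups was 1 library: LmHC and LmLC, labelled high and low cadmium, each at the start (0 h) and 24 h into treatment with 300 µM cadmium chloride. LmHC and LmLC were read as 2 plant lines from the growth protocol, although a treatment tag in the sample labels carries the words high and low cadmium. All seedlings had been raised on agar, moved at 7 days to Hoagland solution and sampled from an age of 2 weeks. The labels name neither the tissue nor the number of seedlings in a library, and no untreated 24 h library was analysed here, so the effects of cadmium and of 24 h of further growth cannot be told apart. With 1 library a group there is no replicate check, no test and no standard error for any difference below. Line, plants and library preparation are likewise confounded, and their effects cannot be told apart.

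Lolium multiflorum, Italian ryegrass, is an outcrossing forage grass whose plants commonly carry different alleles of a gene. When transcripts are assembled without a genome, alleles, splice forms and related gene copies can become separate contigs, which clustering by sequence then joins under a common name. Cadmium is a toxic metal with no known nutrient role in grasses, and it enters roots through carriers of nutrient metals. The table does not pair contigs with genes or sequences, so no contig below is given a function, and no sequence is shown.

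The 72 contigs were few among those that met the same LmLC limit. Of 16093 contigs at 5 FPKM or more in both LmLC libraries, 0.447% were listed at 0 in both LmHC libraries. The reverse pattern, 0 in both LmLC libraries and 5 FPKM or more in both LmHC libraries, was met by 1 of 15517 contigs. This was CL7329.Contig2_All, named after its values were seen, which had 6.23 FPKM in LmHC at 0 h and 6.25 FPKM in LmHC at 24 h. Column totals lay between 782476 and 795368 FPKM. Low values gave an estimated depth of LmHC relative to LmLC of 0.99 at 0 h and 1.03 at 24 h. FPKM is already scaled to the fragments of each library, and without fragment counts this estimate could not be checked. The part of depth in the unlike counts of the lines was not tested.

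Contigs outside the zero limit and below the level limit were counted over unlike ranges, so these counts cannot be compared. Among contigs at 5 FPKM or more in both LmLC libraries, 16 were above 0 in LmHC but stayed under 0.01 of their lower LmLC value. Under 0.05 of it there were 56, and under 0.1 of it 79. The nearest of these was CL11092.Contig1_All, with 0.04 FPKM in LmHC at 0 h, 0 in LmHC at 24 h, and 9.77 and 5.80 FPKM in LmLC. CL1093.Contig4_All followed with 0 and 0.05 FPKM in LmHC and 35.83 and 22.24 FPKM in LmLC. Below the level limit, a further 611 contigs at 0 in both LmHC libraries had a lower LmLC value between 1 and 5 FPKM. The nearest were Unigene50694_All, with 6.08 FPKM at 0 h and 4.95 FPKM at 24 h in LmLC, and Unigene36261_All, with 10.43 and 4.94 FPKM. Just inside the limit, the lowest LmLC values were 5.00, 5.04 and 5.11 FPKM.

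Most of the 72 contigs were of modest abundance in LmLC. At 0 h their values ran from 5.00 to 51.60 FPKM with a median of 9.61 FPKM, and at 24 h from 5.20 to 92.38 FPKM with a median of 10.2 FPKM. The other contigs at 5 FPKM or more in both LmLC libraries had medians of 17.6 FPKM at 0 h and 13.3 FPKM at 24 h. A level of 20 FPKM or more was reached by 11 of the 72 at 0 h and by 13 at 24 h, or 15.3% and 18.1%, against 44.1% and 35.6% of those other contigs. The 72 together held 0.123% of the LmLC column total at 0 h and 0.133% at 24 h. In bulk tissue, a transcript present in fewer cells and a transcript at a lower level per cell cannot be told apart.

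The highest mean LmLC level was that of Unigene38632_All, listed at 0 in both LmHC libraries, at 7.95 FPKM in LmLC at 0 h and at 92.38 FPKM in LmLC at 24 h. CL1118.Contig2_All came next, again at 0 in both LmHC libraries, with 51.60 FPKM at 0 h and 36.59 FPKM at 24 h. The first owed its rank to the 24 h library alone, whereas the second was abundant at both times. The lowest means belonged to Unigene2023_All, with 5.11 and 5.77 FPKM, and CL14353.Contig3_All, with 5.20 and 5.99 FPKM.

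**Figure D1:**
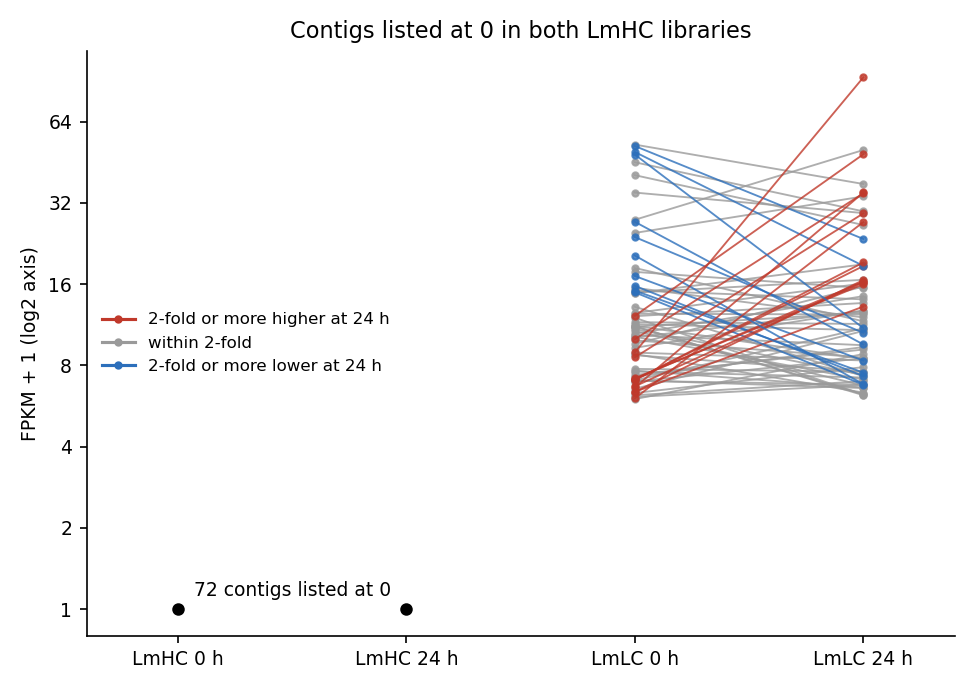
FPKM + 1 on a log2 axis for the 72 contigs in each of the 4 libraries; each line joins the LmLC values of 1 contig, and the points at 1 stand for all 72 contigs in LmHC. The 13 red lines run to values at least 2-fold higher at 24 h, the 10 blue lines to values at least 2-fold lower, and 49 grey lines stay within 2-fold.

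After 24 h, the 72 contigs went both ways in LmLC, with log2 ratios from -2.14 to 3.38 and 23 of them at least 2-fold apart. On the log2(FPKM + 1) scale, which understates the change of low contigs, their median log2 ratio of 24 h over 0 h was -0.04, and that of all 16093 contigs at 5 FPKM or more in both LmLC libraries, which were more abundant, was -0.50. A ratio of at least 2-fold was taken as higher or lower. By this rule 13 of the 72 (18.1%) were higher at 24 h, against a background of 13.4%, and 10 (13.9%) were lower, against a background of 28.5%. The background contigs had to meet the same level limits at both times, which curb large changes of contigs near 5 FPKM. With median-of-ratios scaling, which shifted the median of the 72 to 0.23 and the background median to -0.21, 14 of the 72 were higher and 4 lower, against 17.0% and 16.2% of the background.

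The same comparison was made at lower abundance. Among the 60 with a mean LmLC level under 20 FPKM, a limit chosen after seeing the data, 10 (16.7%) were higher by the same rule and 7 (11.7%) lower. Of all 9341 contigs under the same limit, 8.05% were higher and 23.9% lower, with a median log2 ratio of -0.43 against -0.03 for the 60. The counts for the 72 are small, and no test of the difference was possible.

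The largest increase was in Unigene38632_All, with the values given above and a log2 ratio of 3.38. Unigene47371_All followed, from 5.63 to 33.96 FPKM, with a log2 ratio of 2.40. Both stand outside the assembly clusters, and both went from the lower part of the range at 0 h to the upper part at 24 h. The largest decrease was in CL14135.Contig3_All, from 47.30 to 9.99 FPKM, with a log2 ratio of -2.14. Unigene441_All went from 19.41 to 5.81 FPKM, with a log2 ratio of -1.58. The choice of contigs required 5 FPKM or more at 24 h, so decreases to below that level could not appear here.

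Of the 72 contigs, 47 belonged to 44 assembly clusters and 25 stood alone. The share in clusters was 65.3%, against 74.1% of the 16093 contigs that met the same LmLC limit. Medians in clusters were 10.1 FPKM at 0 h and 10.4 FPKM at 24 h, and outside clusters 7.81 and 8.35 FPKM. Of the 47 in clusters, 7 (14.9%) passed 2-fold toward 24 h and 8 (17.0%) toward 0 h, against 13.1% and 27.5% of the 11919 clustered contigs at 5 FPKM or more in both LmLC libraries. Outside clusters, 6 of 25 (24.0%) were higher at 24 h and 2 of 25 lower, against 14.3% and 31.4% of 4174.

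For the clustered contigs, the table allows the question whether other contigs of the same cluster supply expression in LmHC. The 44 clusters held between 2 and 24 contigs, with a median of 6, against a median of 4 in the 6519 clusters of 2 or more contigs that hold any contig at 5 FPKM or more in both LmLC libraries. A pair of the 72 contigs lay together in 3 clusters, and 41 clusters held 1 each. FPKM was summed over all contigs of a cluster, which mixes contigs of different and unknown lengths. RSEM, the named quantifier, shares out a fragment that matches more than 1 contig, and a sum over the cluster is less exposed to this than a single contig is.

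Other contigs supplied LmHC in 41 of the 44 clusters (93.2%), where their sum was 1 FPKM or more in LmHC at both times. For comparison, when the most abundant LmLC contig was left out of each of the 6519 clusters, the rest reached this level in 87.2%. The shares are not a like comparison, since the contigs absent from LmHC were seldom the most abundant of their cluster and these clusters hold more contigs. The cluster sum of LmHC was within 2-fold of that of LmLC at both times in 37 of the 44 clusters (84.1%), against a background of 97.1%. It was more than 2-fold below LmLC at both times in 5 clusters (11.4%), against a background of 0.337%. The remaining 2 clusters were within 2-fold at 1 time. Because the chosen contigs add to LmLC alone, a lower share within 2-fold follows in part from the way they were chosen.

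**Figure D2:**
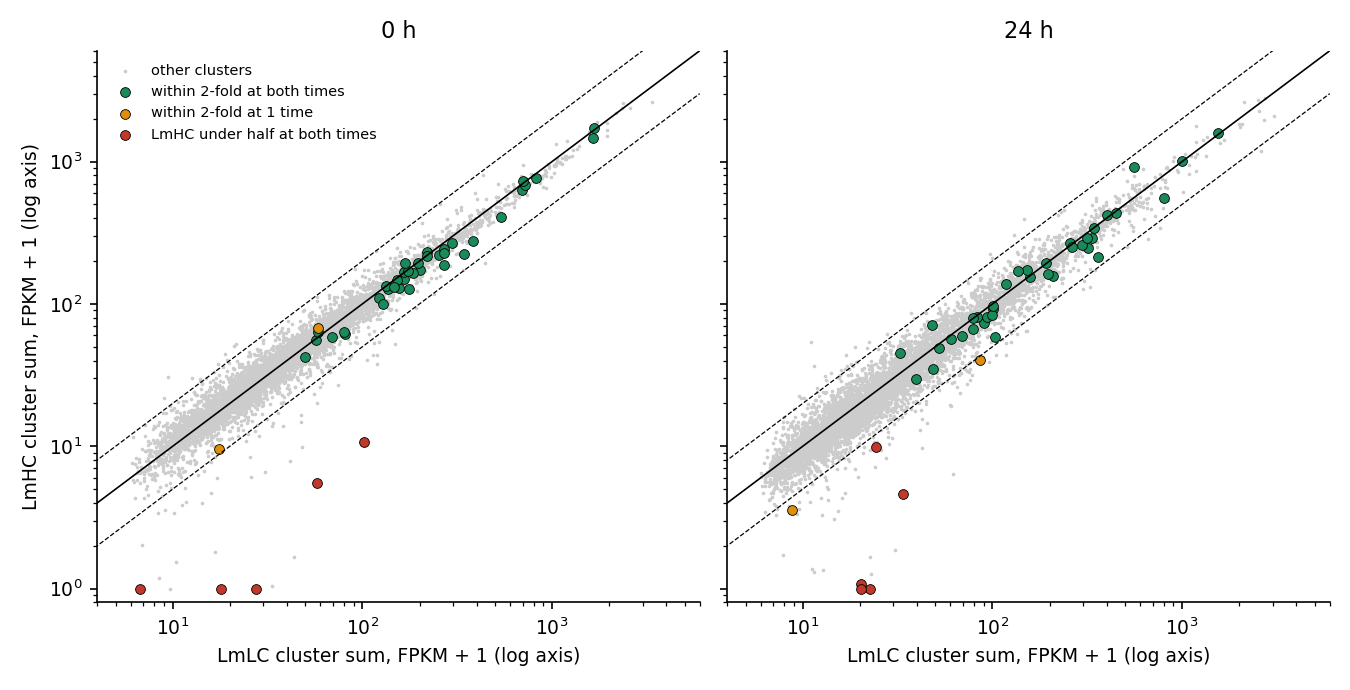
Summed FPKM + 1 of each cluster in LmLC (horizontal, log axis) and LmHC (vertical, log axis) at 0 h and 24 h; grey points are other clusters with a contig at 5 FPKM or more in both LmLC libraries, coloured points the 44 clusters that hold contigs listed at 0 in LmHC, the solid line marks equal sums and dashed lines 2-fold. The 37 green points lie between the dashed lines in both panels, and the 5 red points lie below them in both.

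In the 37 clusters with a like summed level, the LmHC sums ran from 41.43 to 1709.63 FPKM at 0 h, with a median of 172.13 FPKM, and the LmLC sums from 48.69 to 1657.59 FPKM, with a median of 183.35 FPKM. At 24 h the median sums were 155.17 FPKM in LmHC and 151.44 FPKM in LmLC. With a limit of 1.5-fold in place of 2-fold, 33 clusters remained within it at both times. The contigs absent from LmHC were minor parts of these clusters, with a median of 6.25% of the LmLC sum at 0 h and 7.84% at 24 h. In most of these clusters they were thus a small part of an LmLC sum that was within 2-fold of the LmHC sum. The log2 ratios of LmHC over LmLC sums ran from -0.61 to 0.21 at 0 h and from -0.81 to 0.72 at 24 h.

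The closest sums were those of CL3565, with 132.90 FPKM in LmHC and 131.79 FPKM in LmLC at 0 h, and 78.83 and 78.33 FPKM at 24 h. Its contig absent from LmHC, CL3565.Contig6_All, had 9.73 and 5.74 FPKM in LmLC. The leading contig of the cluster, CL3565.Contig9_All, had 66.50 FPKM in LmHC and 58.65 FPKM in LmLC at 0 h, and 33.61 and 28.30 FPKM at 24 h. CL3565.Contig7_All was also higher in LmHC at 0 h, at 17.45 FPKM against 11.69 FPKM. As the cluster was named for its near-equal sums, the excess of its other contigs in LmHC has to be near the level of the absent contig.

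CL1393 came next, with 170.41 FPKM in LmHC and 172.18 FPKM in LmLC at 0 h, and 339.18 and 340.65 FPKM at 24 h. Its absent contig, CL1393.Contig2_All, had 6.13 FPKM in LmLC at 0 h and 15.34 FPKM at 24 h. The sums of the cluster had log2 ratios of 24 h over 0 h of 0.99 in LmHC and 0.98 in LmLC.

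Among clusters with a like sum, the absent contigs weighed most in CL14212 and CL1118. CL14212 summed to 62.57 FPKM in LmHC and 57.10 FPKM in LmLC at 0 h, and to 44.30 and 31.47 FPKM at 24 h. CL14212.Contig6_All, at 0 in LmHC, gave 20.2% of the LmLC sum at 0 h with 11.51 FPKM and 48.0% at 24 h with 15.09 FPKM. CL14212.Contig1_All, in contrast, was higher in LmHC at both times, with 37.06 and 33.47 FPKM in LmHC and 19.33 and 10.77 FPKM in LmLC.

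CL1118 has 3 contigs, of which 2 were at 0 in LmHC. CL1118.Contig1_All had 26.70 FPKM in LmLC at 0 h and 49.23 FPKM at 24 h, while CL1118.Contig2_All, given above, was lower at 24 h than at 0 h. LmHC expression of the cluster came from CL1118.Contig3_All alone, with 224.73 and 155.17 FPKM in LmHC and 264.08 and 122.81 FPKM in LmLC. The absent contigs together made up 22.9% of the LmLC sum at 0 h and 41.1% at 24 h.

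CL4169, another cluster with a pair of these contigs, summed to 60.85 FPKM in LmHC and 80.19 FPKM in LmLC at 0 h, and to 57.78 and 102.40 FPKM at 24 h. CL4169.Contig5_All had 9.48 and 13.44 FPKM in LmLC and CL4169.Contig6_All 10.13 and 11.53 FPKM. At 0 h the other contigs of the cluster summed to 60.58 FPKM in LmLC, close to the LmHC sum. At 24 h they summed to 77.43 FPKM in LmLC, above the LmHC sum.

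In 5 clusters, all named here because they are few, LmHC lay more than 2-fold below LmLC at both times. In CL10387 and CL14297 every contig was listed at 0 in both LmHC libraries. The LmLC sums were 16.89 FPKM at 0 h and 21.55 FPKM at 24 h in CL10387, and 5.69 and 19.24 FPKM in CL14297. In CL14803, with 5 contigs, LmLC summed to 26.54 and 19.22 FPKM, and the sole LmHC value above 0 was 0.08 FPKM for CL14803.Contig1_All at 24 h. All contigs of these 3 clusters were therefore listed at or near 0 in LmHC. Whether LmHC fragments of the same genes were assigned to contigs outside these clusters was not tested.

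The other two of these clusters were expressed in LmHC at a low level. CL14135 summed to 9.75 FPKM in LmHC and 100.68 FPKM in LmLC at 0 h, and to 3.60 and 32.61 FPKM at 24 h. Its LmHC expression came from CL14135.Contig2_All, which was lower in LmLC, at 2.43 and 0.10 FPKM. In LmLC, CL14135.Contig1_All with 50.95 and 22.52 FPKM and CL14135.Contig3_All, given above, made up 97.6% of the sum at 0 h and 99.7% at 24 h. The most abundant contig of CL14135 thus differed between the lines. The absence of CL14135.Contig1_All and CL14135.Contig3_All from LmHC was set by the choice of contigs. In CL4859 the sums were 4.53 FPKM in LmHC and 56.75 FPKM in LmLC at 0 h, and 8.91 and 23.28 FPKM at 24 h, and the absent contig CL4859.Contig4_All gave 24.5% of the LmLC sum at 0 h and 24.8% at 24 h.

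**Figure D3:**
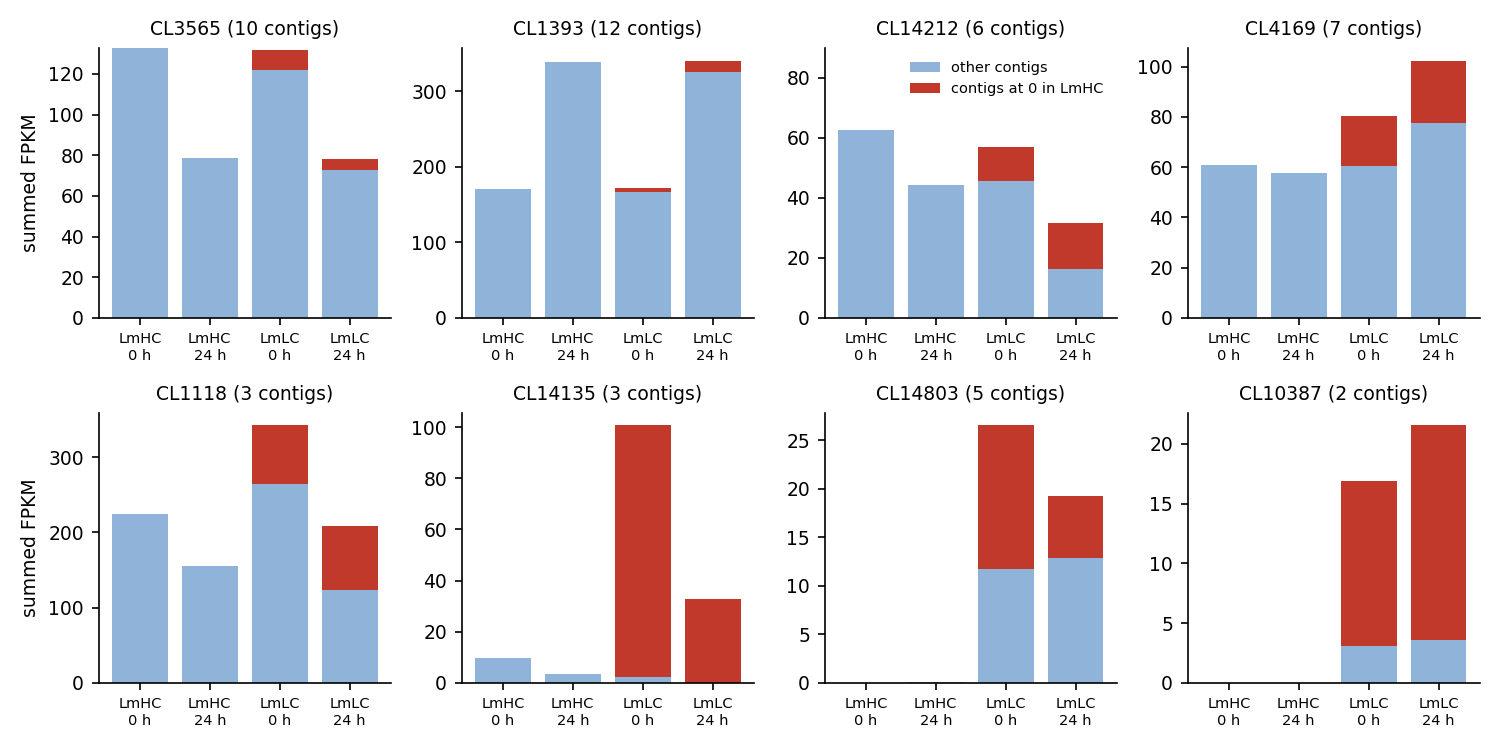
Summed FPKM of 8 clusters in the 4 libraries, each panel with its own vertical axis from 0; blue bars are other contigs, and the red parts stacked on them are contigs listed at 0 in both LmHC libraries. In CL3565 and CL1393 the bars of the lines have like heights at each time, in CL14135 the LmLC bars are almost all red, and in CL14803 and CL10387 the LmHC bars are at or near 0.

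Sums with and without the absent contigs are given side by side. Since these contigs are at 0 in LmHC by choice, including them can only raise the LmLC sum, and the direction of the shift between the sums is fixed. Over the 44 clusters, the median log2 ratio of the LmHC sum to the LmLC sum was -0.16 at 0 h and -0.16 at 24 h with all contigs, and -0.02 and 0.01 when the absent contigs were left out of LmLC. The background medians with all contigs were 0.02 and -0.08. With all contigs the LmHC sum was the lower in 36 of the 44 clusters (81.8%) at 0 h, against 46.4% of background clusters, and in 32 (72.7%) at 24 h, against 61.1%. With the absent contigs left out it was the lower in 25 and 20. The excess of LmHC over LmLC in the other contigs ran from -1095% to 1517% of the level of the absent contigs over the 44 clusters and both times. Differences between the lines in the other contigs were thus in some clusters many times larger than the absent contigs themselves, and whether the other contigs made up for them cannot be read from these sums.

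The most abundant contig of a cluster was compared between the lines. Of the 41 clusters above 0 in LmHC at 0 h, 30 had the same most abundant contig in both lines, and at 24 h 30 of 42. Among background clusters above 0 in LmHC the share was 92.9% at 0 h and 90.7% at 24 h. The difference was not tested, and the 44 clusters hold more contigs. A contig absent from LmHC was itself the most abundant in LmLC in 5 clusters at 0 h and in 6 at 24 h. Where such a cluster was above 0 in LmHC, its most abundant contig had to differ between the lines. Part of the lower share was therefore fixed by the choice of contigs.

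Lower contigs of the same clusters leaned the same way. Of the 99 other contigs in the 44 clusters that did not reach 5 FPKM in both LmLC libraries, 19 (19.2%) were above 0 in LmLC and at 0 in both LmHC libraries. Only 1 (1.01%) was above 0 in LmHC and at 0 in both LmLC libraries. In the background clusters, 5.53% of 20505 such contigs were seen in LmLC alone and 2.54% in LmHC alone. The 44 clusters were themselves chosen for holding a contig seen in LmLC alone. Among the 19 are contigs of CL10387, CL14297 and CL14803, whose sums were at or near 0 in LmHC. Some were low in LmLC, such as CL14212.Contig5_All with 0.72 FPKM at 0 h and 0.39 FPKM at 24 h. Contigs of a cluster share fragments and are not independent, and the difference was not tested.

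The 24 h changes of the absent contigs and of the LmHC cluster sums, which share no library, were compared in the 41 clusters with an LmHC sum of at least 1 FPKM at both times. The absent contigs were lower at 24 h in 24 of the 41 and the LmHC sum in 29. The direction was the same in 26, with 7 higher in both and 19 lower in both, and no test was made of whether this exceeds what those counts alone would give. The cluster sums of the lines had the same direction in 35 of 41. In 10 clusters the absent contigs were higher at 24 h in LmLC and the LmHC sum was lower, and in 5 it was the reverse. Where both passed 2-fold, the direction was the same in 7 clusters and opposite in 0. Across the 41 clusters, as a description, Pearson's r was 0.58 and Spearman's rho 0.58. Within LmLC, the log2 ratio of the absent contigs exceeded that of the other contigs of their cluster in 36 of 41. The medians were -0.10 and -0.63, although the limit of 5 FPKM at 24 h removes absent contigs with large decreases. None of these comparisons was made in the background clusters, so none can be called particular to the 41.

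The 25 contigs outside clusters have no partners by name, so a supply of LmHC expression could not be looked for. Their numbers were unevenly spread, as seen after the data were examined. The names run to Unigene50880, and what the numbers stand for is not given in the sources used here. Up to number 21999, each library listed few contigs at 0, between 4.25% in LmLC at 24 h and 8.06% in LmHC at 0 h. In higher ranges, single libraries stood out. Between 36000 and 37999, 2.72% were at 0 in LmLC at 0 h, against 25.7% to 40.9% in the other libraries. From 48000 to 49999, 0.91% were at 0 in LmLC at 24 h, against 35.8% to 62.4%. Likewise 1.01% were at 0 in LmHC at 0 h between 22000 and 23999, and 0.71% in LmHC at 24 h between 34000 and 35999.

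Of the 25 contigs, 10 had numbers up to 21999, 5 lay between 36000 and 39999, and 10 lay at 46000 or above. As shares of the contigs at 5 FPKM or more in both LmLC libraries, these were 0.265% of 3774, 6.02% of 83 and 7.75% of 129. Between 22000 and 35999, where 41.6% of contigs were at 0 in LmHC at 0 h and 22.0% in LmHC at 24 h, 0 of 186 such contigs were at 0 in both LmHC libraries. Between 40000 and 45999 it was 0 of 2. The ranges were set after seeing the plot by number, and the part of the numbering in the values of the 25 contigs was not tested. Unigene38632_All lies in the range from 36000 to 39999 and Unigene47371_All in that from 46000, whereas Unigene441_All and Unigene2023_All lie in the first.

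**Figure D4:**
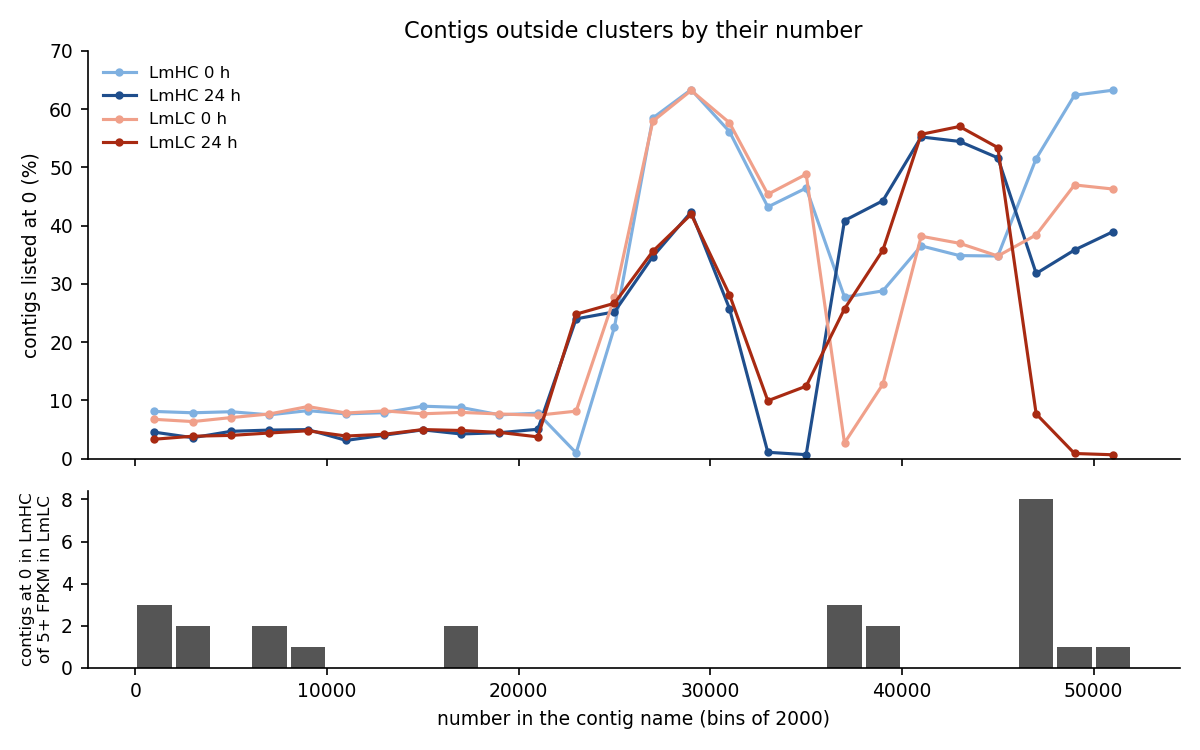
Share of contigs outside clusters listed at 0 in each library (upper panel, percent) and number of contigs among the 25 that are absent from LmHC (lower panel), by the number in the contig name in bins of 2000. The share at 0 drops to 2.72% for LmLC at 0 h in the bin from 36000 and to 0.91% for LmLC at 24 h in the bin from 48000, and 15 of the 25 contigs lie in the ranges from 36000 to 39999 and from 46000.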

How the data were processed

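The deposited table holds FPKM values of 4 libraries, computed by the authors and rounded to 2 decimals. Bowtie2 2.2.5 and RSEM 1.2.8 are named in the submitters' processing notes. Neither these notes nor the labels used here state the assembler, contig lengths or filters. Fragment counts and absolute depth are unknown, so no counting interval is given. Contigs were chosen by a fixed rule (0 in both LmHC libraries, 5 FPKM or more in both LmLC libraries). The rule and lists were chosen with earlier results of these data known. Ratios are log2 of (FPKM + 1) over (FPKM + 1), with a limit of 2-fold. Relative depth is the inverse of the most frequent ratio of low FPKM values of contigs outside clusters, an estimate that was not checked. Named contigs and clusters are those with the highest and lowest levels, the largest increases and decreases, and the closest and lowest LmHC sums. Those with the most members and the largest member shares are named too, besides those named as chosen later. Pseudocounts, scalings, level limits and fold limits were varied. The counting alone was tested, on simulated data with changes clear of the 2-fold limit. Python 3.11.15, numpy 2.4.6, pandas 2.3.3 and matplotlib 3.10.9 were used.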

Additional observations from a re-analysis of the deposited data

Results flagged for a closer look

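In 2 of the 41 clusters compared, the summed level moved the opposite way in the lines, with a log2 difference of at least 1. The difference was not tested. No such count was made for the background clusters, so whether 2 of 41 is more or less than usual is unknown. In CL4859 the sum went from 4.53 to 8.91 FPKM in LmHC and from 56.75 to 23.28 FPKM in LmLC, and the log2 change in LmHC exceeded that in LmLC by 2.09. In CL10752 the sum went from 66.90 to 39.47 FPKM in LmHC and from 57.49 to 84.64 FPKM in LmLC, a log2 difference of -1.30. The absent contig of that cluster, CL10752.Contig3_All, went from 5.00 to 7.81 FPKM in LmLC.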

How the results depend on the processing

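Of 45 alternative values, 31 stayed within 1.5 times the reported count or within 0.1 of the reported median log2 ratio, and 14 did not. Changes of the limits alter which contigs enter; for the other settings the cause was not tested. The number of contigs at 0 in LmHC was 324 with a limit of 2 FPKM in LmLC and 20 with a limit of 10 FPKM. For the changes at 24 h, a pseudocount of 5 gave 8 higher and 5 lower, and median-of-ratios scaling gave 4 lower and a median of 0.23. A limit of 10 FPKM gave 1 higher and 2 lower of 20. No limit on the LmLC level gave 849 higher and 377 lower of 2619, with a median of 0.21. Of all 82458 contigs above 0 in both LmLC libraries, 18367 were higher and 17787 lower. No background was counted for the pseudocount of 5 or the limit of 10 FPKM, so those counts have no comparison. With a limit of 10 FPKM, 14 clusters were left, of which 12 had a like LmHC sum, 2 lay more than 2-fold below and 13 had other contigs at 1 FPKM or more. Cluster counts under the other pseudocounts, scalings, folds and floors stayed within 1.5 times. Pseudocounts and folds cannot act on the count of clusters supplied by other contigs. No paired analysis was possible because each group has 1 library, and for the same reason no library could be left out.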
